A study of Mus musculus with 441 samples.

Results

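The antibody-secreting cells described here were the 21 cells that the authors' annotation calls B cells, all from the Ins tetramer sort, and they were set against the other 236 cells of that sort, which are annotated as T cells. These 257 cells were chosen from 441 deposited cells by the sort and class columns of the deposited annotation, and no expression value was used to choose them here. The labels pair each class with a cluster, so the classes were taken as cut from the same expression values, and the difference between the groups is given as a description, with no test. The labels name no animal, so each group is 1 sample, and cells of a group are not replicates.

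The study profiled single CD4 T cells that were sorted from mouse pancreatic islets with tetramers, reagents of joined MHC class II molecules that present a peptide to fitting T cell receptors. Transcripts were read over their full length with SMART-Seq2. All cells came from dissociated islets, and the sources used here do not give their strain, age or treatment. The 236 T cells comprised 115 regulatory T cells (Treg), 61 T follicular helper cells, 25 activated CD4 T cells and 35 dividing CD4 T cells by the authors' annotation.

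Antibody-secreting cells, plasmablasts and plasma cells, arise from activated B cells and turn most of their protein synthesis over to immunoglobulin. The factors Irf4, Prdm1 (Blimp-1) and Xbp1 drive this change, and Xbp1 with the unfolded protein response enlarges the endoplasmic reticulum (ER), where antibody chains are translocated, folded, glycosylated and joined. The small joining chain, encoded by Igj (now Jchain), links IgA and IgM into polymers. Genes of the immunoglobulin heavy and light chain constant regions were not analysed here.

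Levels are in TPM, which scales the transcripts of each cell to a fixed total and makes genes comparable per length, but keeps no read depth, so the depth behind each cell is unknown. Detection of a gene in a cell required 1 TPM. The number of genes above 0 had a median of 2477 in antibody-secreting cells, with a range of 751 to 4254, and a median of 2093 in T cells, with a range of 694 to 5324. The cell with the fewest genes among the antibody-secreting cells, S461, also had Sdc1 and Cd79a at 0. Detection shares carry exact Clopper-Pearson 95% intervals, which cover counting error only. A gene seen in 0 of 21 antibody-secreting cells could be detected in up to 16.1% of such cells by the exact interval, and a gene seen in 0 of 236 T cells in up to 1.55%.

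The label was set beside defining transcripts. The classes were taken as cut from the same expression values, and the markers were chosen with earlier results known. These counts therefore describe the class and are not an independent check of its label. Of 8 antibody-secreting markers, Igj, Xbp1, Sdc1, Cd79a, Prdm1, Irf4, Tnfrsf17 and Mzb1, 19 of the 21 cells held 7 or more. Of 6 T cell transcripts, Cd3e, Cd3d, Cd3g, Cd4, Lck and Thy1, 18 of the 21 cells held 0, whereas 231 of the 236 T cells held 4 or more. Ms4a1, which encodes CD20 of mature B cells and is lost in plasma cells, was found in 7 of the 21 cells. The class labelled B cell is called antibody-secreting cells here from these markers.

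A few cells went against their class. Cell S372, annotated as a B cell, held 5 of the 6 T cell transcripts, with 283 TPM of Cd3e, 727 TPM of Cd3d, 2998 TPM of Cd3g and 1329 TPM of Lck beside an Igj share of 3.01%, the lowest of the 21 cells. It also had the most genes of the group, 4254, and 15 of the 31 T cell identity genes in the table, where the other 20 cells held 0 to 4. Among the other 20 cells, Cd3e, Cd3g, Cd4 and Thy1 were detected in 0, and Cd3d and Lck in 1 each. On the other side, S111 and S124, annotated as T follicular helper cells, held 5 of 7 B cell markers and 0 of the 6 T cell transcripts, with Igj at 0. These 2 cells carried much of the B cell signal of the T cell group, so means of B cell and MHC class II genes are given with and without them.

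**Figure D1:**
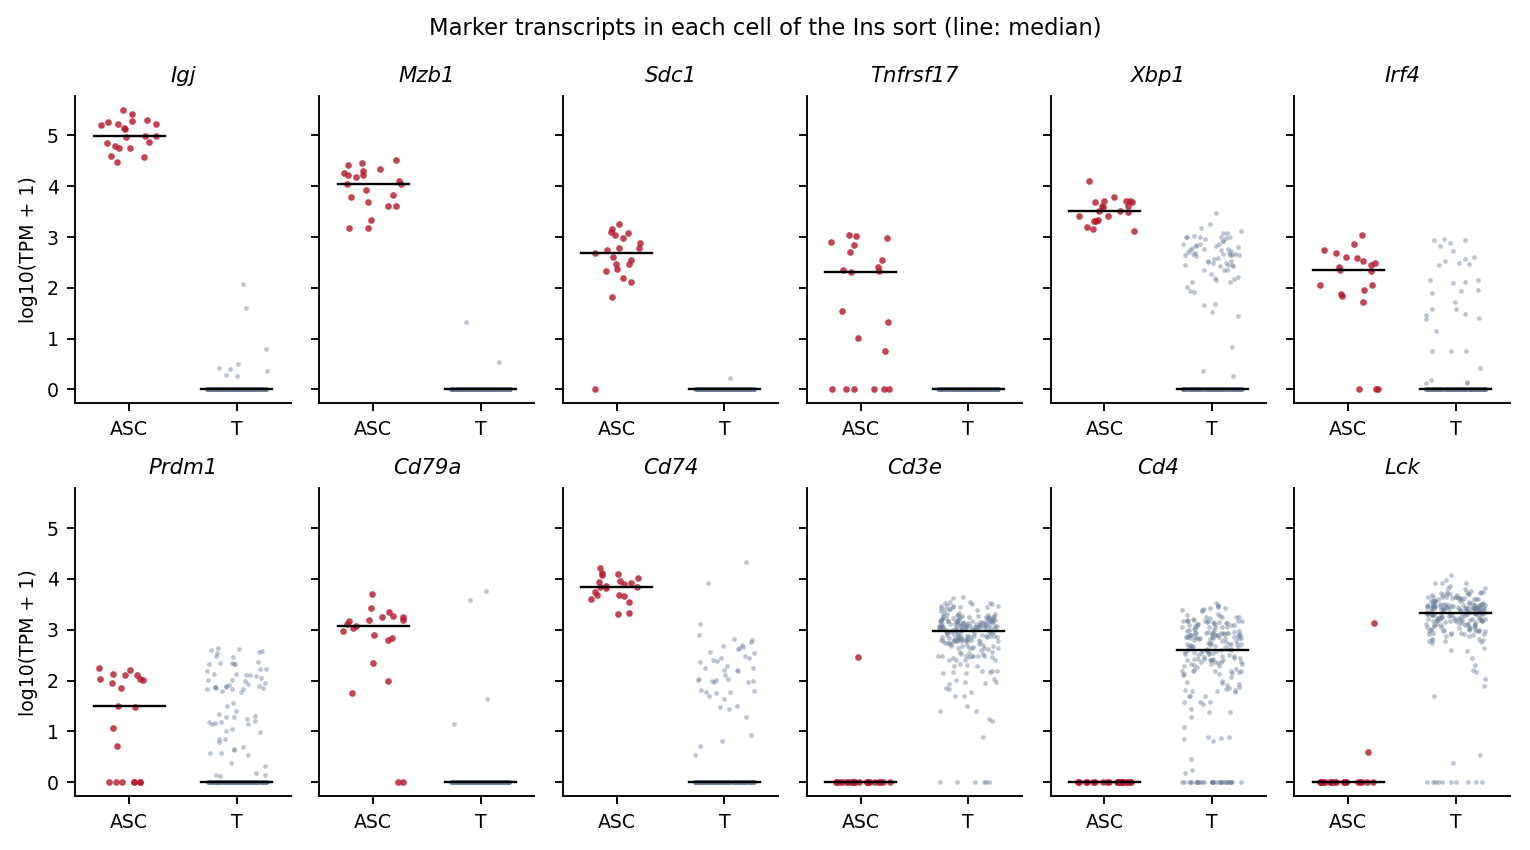
Levels of 12 marker genes in each cell of the Ins sort, as log10(TPM + 1), for the 21 antibody-secreting cells (ASC, left in each panel) and the 236 T cells (T, right). Each point is a cell and the bar is the group median; Igj and Mzb1 separate the groups completely, Prdm1 and Irf4 overlap, and 1 antibody-secreting cell, S372, carries Cd3e.

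Igj had the highest mean of all genes in the antibody-secreting cells and was rare or missing in T cells. It (chr5:88519809-88527897, GRCm38) ranged from 30145 TPM to 320638 TPM in the antibody-secreting cells, with a median of 98727 TPM, against a highest value of 115 TPM in T cells, of which 7 held 1 TPM or more. No T cell reached the lowest antibody-secreting cell. Expressed as a share of the TPM of the 13561 genes analysed here, among which most antibody chain genes do not figure, Igj took 12.7 ± 7.88% in the antibody-secreting cells (SD over 21 cells), from 3.01% to 32.1% in individual cells, and at most 0.0115% in T cells. Because values sum to a fixed total, an Igj share of this size lowers all other genes of the same cell, and the calls were repeated on TPM rescaled without Igj.

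The surface and secretory identity genes separated the groups nearly as far. Mzb1, an ER co-chaperone of antibody assembly, ranged from 1506 TPM to 32884 TPM in the antibody-secreting cells with a median of 11265 TPM, and reached at most 20.3 TPM in T cells, where it was detected in 2 of 236. Sdc1 (chr12:8771396-8793716), which encodes the plasma cell surface proteoglycan CD138, was detected in 20 of 21 antibody-secreting cells with a median of 493 TPM and in 0 of 236 T cells, where its highest value was 0.71 TPM. Tnfrsf17, the survival receptor BCMA, was detected in 15 of 21 antibody-secreting cells (mean 307 ± 387 TPM, SD over cells) and listed at 0 in every T cell. Slamf7, a receptor of the SLAM family, was present in 21 of 21 antibody-secreting cells at 57.5 to 660 TPM and in 9 of 236 T cells. All 4 genes are known from plasma cells. Mzb1 did not overlap between the groups, 6 of the 21 antibody-secreting cells had under 1 TPM of Tnfrsf17, and the highest T cell value of Slamf7, 382 TPM, lay within the range of the antibody-secreting cells.

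The transcription factors of the class did not all set it apart. Xbp1 (chr11:5520641-5525993) was detected in 21 of 21 antibody-secreting cells at 1311 to 12907 TPM (median 3250) and in 71 of 236 T cells, 30.1% (24.3% to 36.4%), with a highest value of 2921 TPM. Its mean was 3894 TPM in antibody-secreting cells and 164 TPM in T cells, a log2 ratio of 4.56. Irf4 was detected in 18 of 21 antibody-secreting cells and 31 of 236 T cells, with means of 274 TPM and 32.4 TPM and a log2 ratio of 3.04. Prdm1, which encodes Blimp-1, overlapped most: it was detected in 14 of 21 antibody-secreting cells and 69 of 236 T cells, with means of 60.6 TPM and 30.6 TPM, and its log2 ratio of 0.96 did not reach the 4-fold difference used for calls. By class, Prdm1 was detected in 66.7% of antibody-secreting cells, 37.4% of Treg, 3.28% of follicular helper cells, 28.0% of activated cells and 48.6% of dividing T cells. The mean of activated T cells, 75.9 TPM, was above that of the antibody-secreting cells.

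**Figure D2:**
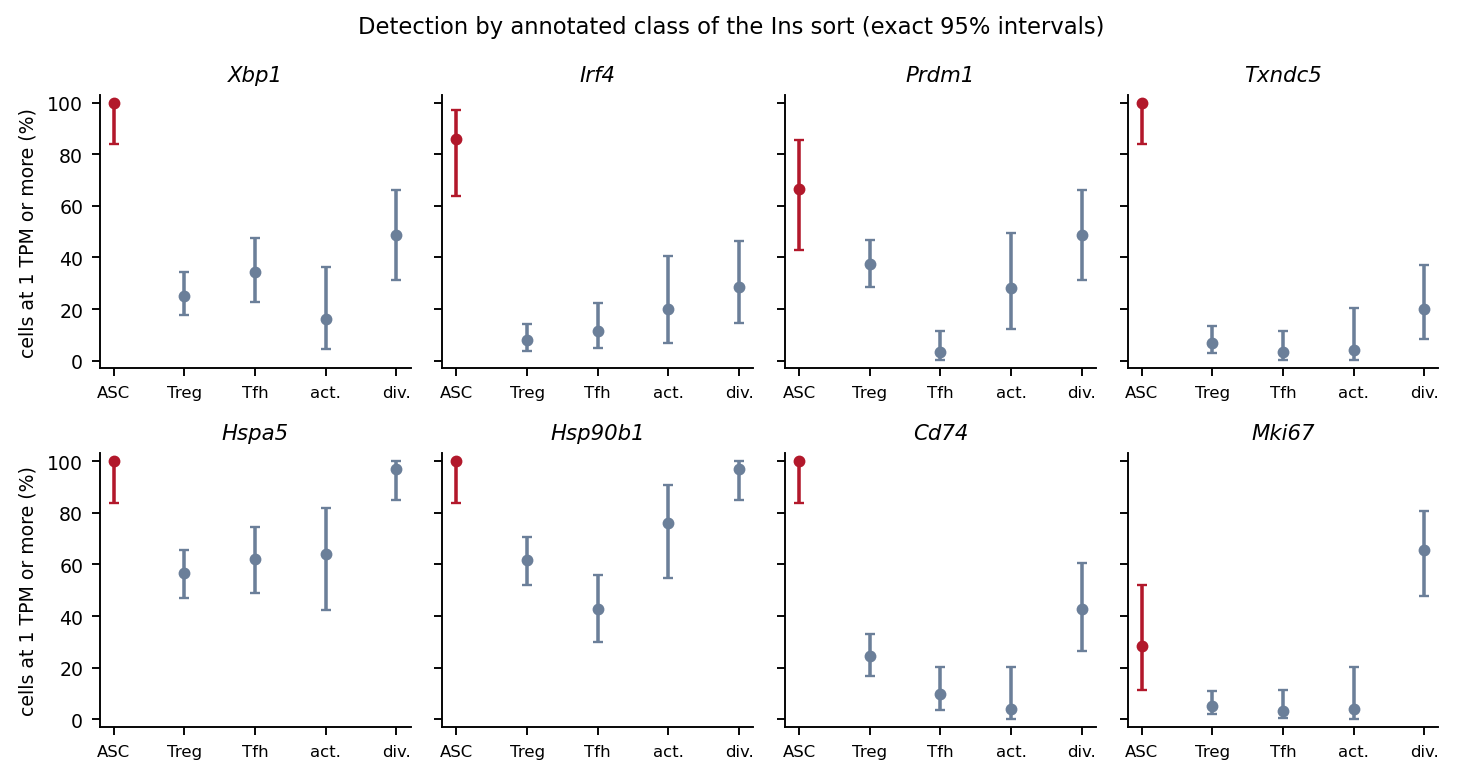
Share of cells at 1 TPM or more, with exact 95% intervals, for 8 genes in the antibody-secreting cells (ASC, 21 cells) and in the Treg (115), T follicular helper (Tfh, 61), activated (act., 25) and dividing (div., 35) T cells. Xbp1 and Txndc5 stand apart from every T cell class, the Prdm1 interval overlaps those of Treg, activated and dividing cells, and Hspa5 and Hsp90b1 are detected in 97.1% of dividing T cells, inside the interval of the antibody-secreting cells.

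The comparison was then made over all genes. A gene was considered if 25% or more of the cells in 1 of the groups held it, and called if the ratio of the means (each plus 1 TPM) was 4-fold or more, a log2 ratio of 2. Of 4028 genes considered, 327 were called higher in antibody-secreting cells (8.12%) and 521 lower (12.9%). Of the 327 higher genes, 277 were considered through the antibody-secreting cells alone, and 26 were listed at 0 in every T cell. Of the 521 lower genes, 382 were considered through the T cells alone, and 52 were listed at 0 in every antibody-secreting cell. The median log2 ratio of all genes considered was -0.38, and -0.19 on TPM rescaled without Igj. With that rescaling 370 genes were called higher, 326 of the 327 among them, and every gene called lower was among the 521. The balance of the calls depended on the measure: as a difference of mean log2(TPM + 1), 699 genes were called higher and 258 lower, so that higher genes made up 73.0% of the calls where ratios of means gave 38.6%. Antibody-secreting cells had more genes above 0 per cell, and the part of that difference in the balance was not tested.

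A second count avoided genes that entered through 1 group. Among the 2031 genes held by 25% or more of both groups, 48 were called higher (2.36%) and 135 lower (6.65%). Cell numbers fall into runs of 96, and the Ins cells lay in numbers 97 to 192, 289 to 384 and 385 to 480, with 2, 14 and 5 antibody-secreting cells against 70, 79 and 87 T cells. The labels do not say what these runs are. Within them, 230 of the 327 higher genes had a ratio above 0 in every run, and 508 of the 521 lower genes a ratio below 0. Of all 4028 genes considered, 589 were above 0 and 1606 below 0 in every run. The calls were made on these same cells, so the sign within runs is not independent of them.

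**Figure D3:**
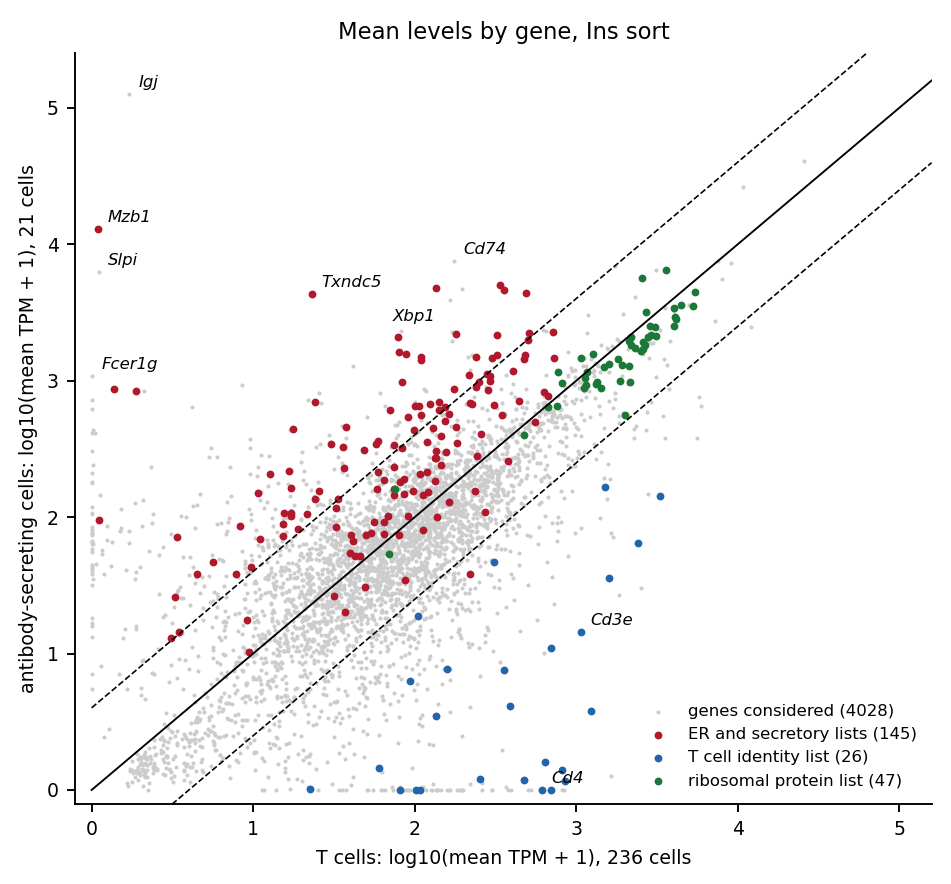
Mean level of each of 4028 considered genes in antibody-secreting cells (vertical axis) and in T cells (horizontal axis), as log10(mean TPM + 1), with the line of equality and dashed lines at 4-fold. Members of the 5 ER and secretory lists (red) lie mostly above the line, T cell identity genes (blue) below the lower dashed line, and ribosomal protein genes (green) near equality.

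Besides the identity genes, the largest differences among named genes detected in 50% or more of the antibody-secreting cells involved proteins of several kinds. Slpi, a secreted protease inhibitor, was detected in 21 of 21 antibody-secreting cells at 279 to 35958 TPM and in 2 of 236 T cells, where it reached 17.6 TPM. Fcer1g, the signalling chain shared by several Fc receptors, was detected in 20 of 21 antibody-secreting cells with a mean of 1089 ± 911 TPM and was listed at 0 in every T cell. Fcer1g is also a textbook myeloid gene. Of the other fixed myeloid markers, Lyz2 and Tyrobp were at 0 in all 21 antibody-secreting cells and C1qb was found in 1, while in T cells 1 of 236 cells held any of the 4. The wider myeloid list had 9 genes in the table. Of these, Cst3, which encodes cystatin C, was detected in 20 of 21 antibody-secreting cells and 163 of 236 T cells, with means of 3050 TPM and 1177 TPM (1.37, not called), and Cd68 in 3 and 16. The metallothionein gene Mt1 and the lysosomal protease gene Ctsh were detected in 12 and 13 of 21 antibody-secreting cells and listed at 0 in every T cell. Blnk, the adaptor of B cell receptor signalling, was detected in 14 of 21 antibody-secreting cells and 1 of 236 T cells, and Cd24a, a surface glycoprotein, in 12 and 1. Tmem176a, a membrane protein gene, was detected in 13 of 21 and 1 of 236, but its ratio was below 0 among cells 385 to 480, at -2.01. Ly6c2 was detected in 14 of 21 and 3 of 236, and its count is uncertain because it shares sequence with the near-identical Ly6c1.

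The antibody-secreting identity list had 27 considered members of 27 in the table. Of these, 22 were called higher (81.5%, against 8.12% of all considered genes) and 1 lower (3.70%, against 12.9%). The median log2 ratio was 4.64 against -0.38 over all genes. Of the 27, 8 were held by 25% or more of both groups, and 4 of these were called higher. The lower member was Cd28, a costimulatory receptor that T cells also use. The list shares Derl3, Fkbp11, Txndc5, Sec11c and Mzb1 with the ER groups described next, so these genes count in both. All 8 markers from which the class was named, Igj, Xbp1, Sdc1, Cd79a, Prdm1, Irf4, Tnfrsf17 and Mzb1, are members of this list. All of them but Prdm1 were called higher. The counts and median of the list are therefore not independent of the name of the class.

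Genes of the early secretory pathway were higher together. The 5 lists that follow antibody chains from entry into the ER to the Golgi held 170 genes in the table, 145 of them considered, and 67 were called higher (46.2%, against 8.12% of all considered genes) and 1 lower. Of the 145, 61 were considered through the antibody-secreting cells alone. Among the 83 detected in both groups, 23 were called higher (27.7%, against 2.36%) and 0 lower, with a median log2 ratio of 1.54 against -0.50 over all genes detected in both groups. The summed transcripts of these genes took 6.23% to 16.3% of TPM in antibody-secreting cells, with a median of 11.5%, and 0.0777% to 4.41% in T cells, with a median of 2.11%. No T cell reached the lowest antibody-secreting cell, and in dividing T cells, which had the most genes above 0 (median 3610), the median was 2.16%.

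Part of this pathway carries a known promoter element. The ER stress response element, CCAAT and CCACG separated by any 9 bases and searched on both strands, is bound by NF-Y together with ATF6 or XBP1, and the unfolded protein response was worked out on several of these same ER genes, so the match is not independent of the lists. In RefSeq promoter windows (250 bases before to 50 after the gene start, GRCm38.p6), the match was found for 8 of the 55 called-higher ER list genes with a window (14.5%), for 2 of the 67 considered but uncalled members with a window (2.99%), for 0.340% of considered genes (11 of 3240) and for 0.137% of all genes with a window (37 of 27025). Of the 11 considered genes with a match, 10 were ER list members and 8 were called higher, and among the 403 called-lower genes with a window there were 0. The shorter CCACG alone, which lies inside the longer element, was in 85.5% of the called-higher ER genes, 52.4% of considered genes and 35.5% of all genes, and TGACGTGG in 9.09%, 1.36% and 0.714%. Among the uncalled ER list members these shares were 59.7% for CCACG and 7.46% for TGACGTGG. The matches of the 8 genes are printed below in the orientation of the element, with its fixed bases in capitals, since they are a sequence feature that these 8 ER genes share.
Derl3: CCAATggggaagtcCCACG
Creld2: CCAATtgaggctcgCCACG
Ero1lb: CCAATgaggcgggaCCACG
Hsp90b1, distal match: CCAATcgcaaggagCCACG
Hsp90b1, proximal match: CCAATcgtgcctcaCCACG
Dnajc3: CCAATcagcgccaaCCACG
Syvn1: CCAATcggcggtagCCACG
Pdia6: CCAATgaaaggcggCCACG
Hspa5: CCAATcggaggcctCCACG
The matches printed first are those of Derl3 at chr10:75893242-75893260 on the minus strand, Creld2 at chr15:88819520-88819538 on the minus strand, Ero1lb at chr13:12565682-12565700 on the minus strand and Hsp90b1 (distal) at chr10:86705638-86705656 on the minus strand. They are followed by those of Hsp90b1 (proximal) at chr10:86705533-86705551 on the plus strand, Dnajc3 at chr14:118937827-118937845 on the plus strand, Syvn1 at chr19:6046532-6046550 on the plus strand, Pdia6 at chr12:17266491-17266509 on the plus strand and Hspa5 at chr2:34772025-34772043 on the plus strand. The Creld2 match lies between the divergent starts of Creld2 and Alg12 and falls in both windows, and Alg12, a mannosyltransferase of N-glycan synthesis, was detected in 2 of 21 antibody-secreting cells and 20 of 236 T cells. Calr and Canx, the lectin chaperones, held a match without being called, at log2 ratios of 1.95 and 0.99.

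The 250 bases before the start of Derl3, the gene with the largest ratio among the 8, and of Hspa5, the chaperone BiP on which the element is best known, show the match in place, with its fixed bases in capitals. Both are given on the plus strand, 5′ to 3′, Derl3 from chr10:75893148-75893397 and Hspa5 from chr2:34771840-34772089; in Derl3 the element lies on the opposite strand and so reads reversed.
Derl3: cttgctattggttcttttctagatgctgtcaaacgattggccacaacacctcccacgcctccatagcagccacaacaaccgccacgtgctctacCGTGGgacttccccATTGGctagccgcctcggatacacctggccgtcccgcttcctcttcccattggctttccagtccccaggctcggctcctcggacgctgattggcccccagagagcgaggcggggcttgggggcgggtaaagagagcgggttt
Hspa5: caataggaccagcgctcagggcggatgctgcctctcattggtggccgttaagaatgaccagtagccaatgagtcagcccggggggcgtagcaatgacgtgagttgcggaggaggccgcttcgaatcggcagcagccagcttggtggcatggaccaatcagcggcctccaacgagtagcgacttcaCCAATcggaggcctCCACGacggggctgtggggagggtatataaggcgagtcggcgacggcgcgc
Among the 4 ER list genes with the largest ratios for which a window was used, Fkbp11, Derl3, Txndc5 and Tram2, the Derl3 window held 3 CCACG and that of Tram2 held 1, and in the first listed windows of Fkbp11 and Txndc5 none of these letters were found.

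ER folding and disulfide formation had the largest share of calls among these 5 lists. Of 30 considered members, 23 were called higher (76.7%, against 8.12% of all considered genes) and 0 lower. The median log2 ratio was 2.61. Txndc5, a protein disulfide isomerase, ranged from 56.3 to 10561 TPM in antibody-secreting cells (21 of 21) with a median of 4084 TPM, against a mean of 22.1 TPM in T cells, where it was detected in 18 of 236, a log2 ratio of 7.55. Fkbp11, a prolyl isomerase of the ER, was detected in 17 of 21 antibody-secreting cells with a mean of 875 TPM and in 1 of 236 T cells. Dnajb9, a co-chaperone that regulates the stress sensor IRE1, was detected in 17 of 21 and 13 of 236, with a log2 ratio of 4.84. Several classical members were chosen for mention after their values were seen. Hspa5 averaged 2224 TPM in antibody-secreting cells and 513 TPM in T cells, a log2 ratio of 2.12. Hsp90b1, the chaperone GRP94, averaged 4994 TPM and 339 TPM (3.88), Pdia4 2193 TPM and 179 TPM (3.60), and Creld2 2105 TPM and 77.4 TPM (4.75). Hspa5, the general chaperone of the group, was detected in 153 of 236 T cells, against 36 of 236 for Creld2.

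Entry into the ER was covered by the translocation list. Of 25 considered translocation genes, 11 were called higher (44%, against 8.12% of all considered genes) and 0 lower. The median log2 ratio was 1.84. Sec11c, a catalytic subunit of signal peptidase, was detected in 21 of 21 antibody-secreting cells at 1526 to 7779 TPM and in 113 of 236 T cells, with means of 4658 TPM and 354 TPM and a log2 ratio of 3.71. Ssr4, a subunit of the translocon-associated complex, averaged 4367 TPM and 487 TPM (3.16), and Srprb, of the signal recognition particle receptor, 324 TPM and 35.2 TPM (3.17). Tram2, a translocon-associated protein, was detected in 12 of 21 and 6 of 236 cells, but its median of 2.66 TPM in antibody-secreting cells shows that its log2 ratio of 6.41 rests on a few cells. Of the list, Srp54a shares its sequence with the near-identical Srp54b and Srp54c and is uncertain.

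In N-glycosylation, 12 of 28 considered members were called higher (42.9%, against 8.12% of all considered genes) and 0 lower. The median log2 ratio was 1.67. Rpn1, a subunit of the oligosaccharyltransferase, was detected in 21 of 21 antibody-secreting cells and 92 of 236 T cells, with means of 975 TPM and 82.2 TPM (log2 ratio 3.55), and Stt3b, a catalytic subunit, in 13 and 9 cells (3.05). St6gal1, which adds sialic acid to N-glycans, antibody glycans among them, was detected in 20 of 21 and 21 of 236, with means of 440.4 TPM and 16.7 TPM (4.64). Man1a, a mannosidase of the Golgi, was detected in 11 and 10 cells (3.37).

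Disposal of misfolded proteins was represented by 21 considered members of ER associated degradation. Of these, 10 were called higher (47.6%, against 8.12% of all considered genes) and 0 lower, with a median log2 ratio of 1.80. Herpud1, a stress-induced membrane component, ranged from 573 to 16347 TPM in antibody-secreting cells and had means of 4757 TPM and 134 TPM, a log2 ratio of 5.14. Edem2 and Edem1, which trim mannose from misfolded glycoproteins, had log2 ratios of 4.33 and 3.82. Derl3, a membrane protein of the retrotranslocation machinery, was detected in 17 of 21 antibody-secreting cells with a median of 759 TPM and in 2 of 236 T cells, where it reached 137 TPM.

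ER to Golgi traffic showed smaller differences, with a median log2 ratio of 1.12. Of 41 considered members, 11 were called higher (26.8%, against 8.12% of all considered genes) and 1 lower (2.44%, against 12.9%). Lman1, the cargo receptor ERGIC-53, was detected in 20 of 21 and 34 of 236 cells, with highest values of 1872 TPM and 1860 TPM and a log2 ratio of means of 3.60. The coat subunit gene Sec24a and the coat regulator Arfgap3 had log2 ratios of 2.65 and 3.23. Yif1a, a membrane protein of Golgi traffic, had a log2 ratio of 2.65, which was -5.64 among cells 97 to 192, where the group holds 2 antibody-secreting cells. The lower gene was Trappc1, a tethering factor subunit, at -2.52. Among members held by 25% or more of both groups, 7 of 13 were called higher for folding, 8 of 20 for translocation and 4 of 15 for N-glycosylation. For degradation it was 2 of 11 and for traffic 2 of 24, and 0 were called lower in any of the 5 lists. Of all genes held by both groups, 2.36% were called higher and 6.65% lower.

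**Figure D4:**
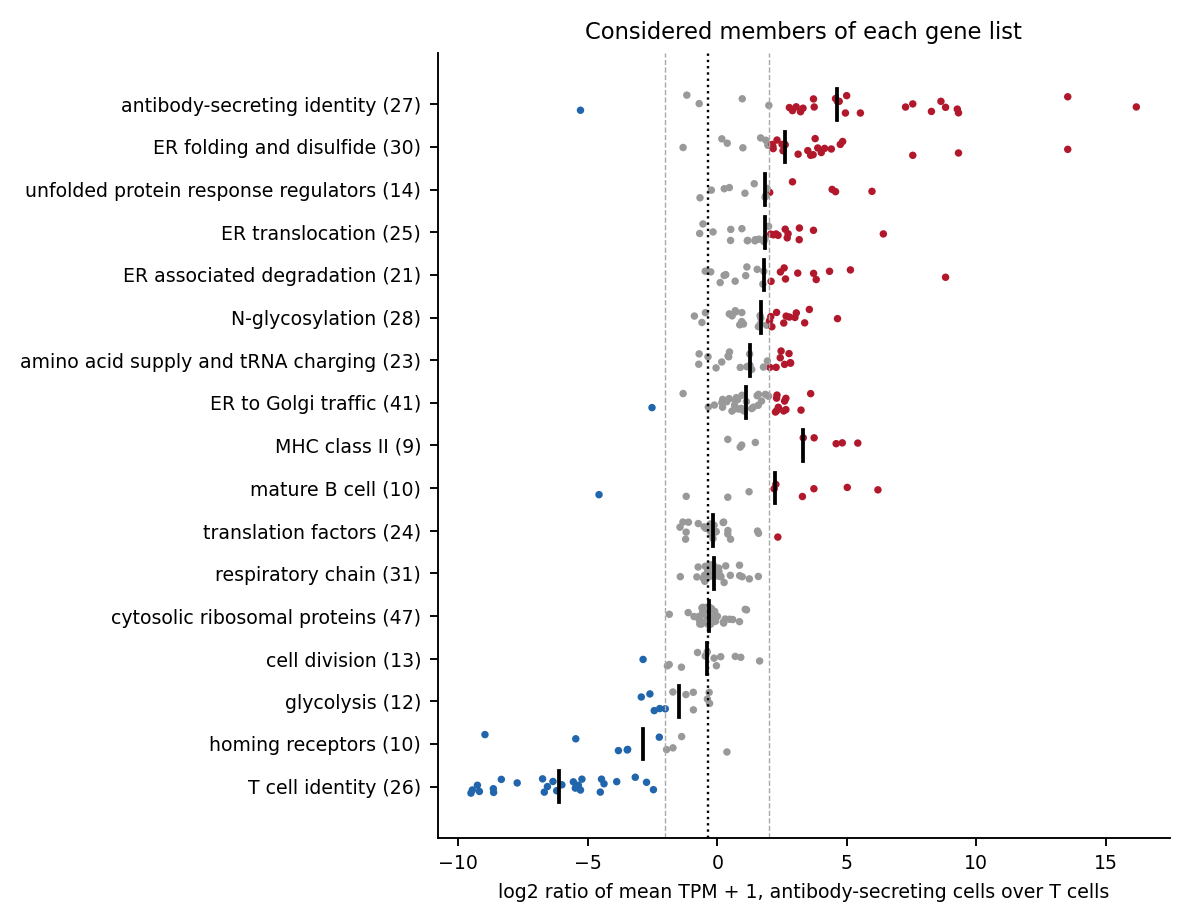
Log2 ratio of mean TPM + 1 (antibody-secreting cells over T cells) of each considered member of 17 gene lists, with the number of members in brackets, the list median as a black bar, the median of all considered genes as a dotted line at -0.38 and dashed lines at the 4-fold threshold. The ER lists lie to the right of the dotted line, the ribosomal, respiratory chain and translation factor lists on it, and the T cell identity list to the left of the lower threshold.

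Of the regulators of the unfolded protein response, 5 of 14 considered members were called higher (35.7%, against 8.12% of all considered genes). None were called lower, and the median log2 ratio was 1.86. Of the 14, 12 were considered through the antibody-secreting cells alone, and of the 2 held by 25% or more of both groups 1 was higher. That gene was Xbp1, which is also among the markers from which the class was named. Besides Xbp1, Bhlha15, which encodes the secretory cell factor Mist1, was detected in 8 of 21 antibody-secreting cells and 1 of 236 T cells. Creb3l2, an ER-bound factor, was detected in 13 and 8 cells (log2 ratio 2.90), and Asns, asparagine synthetase, in 10 and 4 (4.43). Atf4 and Eif2ak3, which encodes PERK, did not reach the call at 1.92 and 1.87, and Ddit3, the stress factor CHOP, was at 0.47. These last 3 genes were chosen after their values were seen. Of the 23 considered genes of amino acid supply and tRNA charging, 8 were called higher (34.8%, against 8.12%) and 0 lower, with a median of 1.26. Of the 23, 18 were considered through the antibody-secreting cells alone, and the 4 held by both groups included 1 higher gene and had a median of 0.42. Slc3a2, the heavy chain of the CD98 amino acid transporter, was detected in 21 of 21 antibody-secreting cells and 210 of 236 T cells, with means of 1537 TPM and 225 TPM (2.77). Its light chain partner Slc7a5 was sparse, in 7 of 21 and 4 of 236 cells, with a highest value of 35.4 TPM in antibody-secreting cells. Phgdh, of serine synthesis, had a log2 ratio of 2.60 and Mars, methionyl-tRNA synthetase, 2.82.

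The general machinery of translation and respiration differed little. Of 47 considered cytosolic ribosomal protein genes, 0 were called in either direction, against 8.12% higher and 12.9% lower of all considered genes. Their median log2 ratio of -0.32 lay near the -0.38 of all genes. Rpl10 averaged 5614 TPM in antibody-secreting cells and 2567 TPM in T cells (1.13), and Rpsa 983 TPM and 2144 TPM (-1.12). Of 31 considered respiratory chain genes, 0 were called, with a median of -0.14 that became 0.08 on TPM rescaled without Igj. Of 24 considered translation factors, Eif4ebp1, which encodes an inhibitor of cap-dependent initiation, was the 1 called gene, higher at 2.34 (4.17%, against 8.12%). The list median of -0.17 became 0.01 without Igj. In the ribosomal, respiratory and translation factor lists, 46, 31 and 23 members were held by 25% or more of both groups. None of these were called, against 2.36% higher and 6.65% lower of all such genes. Some glycolysis genes were lower. Of 12 considered members, 5 were called lower (41.7%, against 12.9% of all considered genes), 0 higher and 7 not called, with a median of -1.46. Of the 10 held by 25% or more of both groups, 3 were called lower, against 6.65% of all such genes. Ldha, lactate dehydrogenase, averaged 376 TPM in antibody-secreting cells and 2289 TPM in T cells (-2.60), Eno1 128 TPM and 603 TPM (-2.22), and Hk1 was detected in 3 of 21 and 73 of 236 cells (-2.93).

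Some MHC class II genes were held by nearly every antibody-secreting cell. Of 9 considered members, 5 were called higher (55.6%, against 8.12% of all considered genes) and 0 lower, with a median log2 ratio of 3.32. Of the 9, 8 were considered through the antibody-secreting cells alone, and the 1 held by both groups was not called, at 0.41. Cd74, the invariant chain, ranged from 2028 to 16229 TPM in antibody-secreting cells (median 7036) and was detected in 50 of 236 T cells, with means of 7510 TPM and 174 TPM. H2-Ab1 was detected in 21 of 21 antibody-secreting cells at 753 to 14626 TPM and in 10 of 236 T cells, and H2-Aa in 20 and 5. Without S111 and S124 the T cell means became 46.8 TPM for Cd74, 13.1 TPM for H2-Ab1 (against 196 TPM with them) and 14.7 TPM for H2-Aa (against 81.3 TPM), and the log2 ratios became 7.30, 8.40 and 7.21, against 5.42, 4.59 and 4.83 with them. H2 genes share near-identical stretches, so their reads may be split among them. Ciita, the factor that drives class II genes, was detected in 0 of 21 antibody-secreting cells and 3 of 236 T cells and was chosen after its values were seen.

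Mature B cell genes were present in some of the cells. Of 26 genes of this list in the table, 10 were considered. Of these, 6 were called higher (60%, against 8.12% of all considered genes) and 1 lower (10%, against 12.9%). Of the 10, 8 were considered through the antibody-secreting cells alone, and the 1 held by both groups was not called, at -1.20. Cd79a (chr7:24897497-24901858), the signalling chain of the B cell receptor, was detected in 19 of 21 antibody-secreting cells with a mean of 1286 TPM and in 4 of 236 T cells, with a mean of 40.8 TPM, which was 0.235 TPM without S111 and S124. Ms4a1 was detected in 7 of 21 antibody-secreting cells (mean 72.5 ± 119 TPM) and listed at 0 in every T cell. All 7 cells lay in numbers 289 to 384, which hold 14 of the 21 cells, and S372 was among them. Tnfrsf13c, the BAFF receptor, was detected in 11 of 21 and 23 of 236 cells (5.02), and Btla, an inhibitory receptor, in 12 and 29 (3.73). The 1 lower gene was Ltb, lymphotoxin beta, in 3 of 21 antibody-secreting cells and 199 of 236 T cells (-4.57). The antibody-secreting cells held a median of 2 of 7 B cell markers, with a range of 1 to 5.

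T cell genes were the clearest group on the lower side. All 26 considered T cell identity genes were called lower (100%, against 12.9% of all considered genes), with a median log2 ratio of -6.10. However, 2 of them alone were held by 25% or more of the antibody-secreting cells, so most had to differ to be considered. These 2 were held by both groups and were called lower, against 6.65% of all such genes. Cd4 was listed at 0 in each of the 21 antibody-secreting cells and detected in 202 of 236 T cells (mean 612 TPM), and Cd247, the CD3 zeta chain, in 0 of 21 and 179 of 236. Cd3e was detected in 1 of 21 antibody-secreting cells, S372, and in 230 of 236 T cells. Folr4, the Izumo1 receptor gene that regulatory T cells express, was detected in 1 of 21 and 210 of 236, with means of 0.264 TPM and 1643 TPM. Gimap3 and Gimap7, lymphocyte GTPases, were listed at 0 in all 21 antibody-secreting cells and detected in 199 and 160 of 236 T cells. Cd27, a costimulatory receptor that is also known from memory B cells, was listed at 0 in all 21 and detected in 164 of 236. Other genes at 0 in the antibody-secreting cells were the calcium-binding S100a6, the actin regulator Cotl1, Rbm38, Ramp1 and Arhgap4, which 125 to 152 of the T cells held. Although the sort was for CD4 T cells, 20 of the 21 cells held 0 of Cd3e, Cd3g and Cd4.

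Some homing receptors were called lower. Of 10 considered members, 0 were called higher and 6 lower (60%, against 12.9% of all considered genes), with a median of -2.85. Of the 10, 6 were considered through the T cells alone. Of the 4 held by both groups 1 was lower, against 6.65% of all such genes. Cxcr6 was listed at 0 in all 21 antibody-secreting cells and detected in 90 of 236 T cells, and Ccr2, in 2 of 21 and 97 of 236, had a log2 ratio of -5.46. S1pr1, the exit receptor for the lymphocyte path back to blood, was detected in 3 of 21 and 63 of 236 (-3.82). Cxcr3, a receptor for interferon-induced chemokines, was detected in 12 of 21 antibody-secreting cells and 133 of 236 T cells, 57.1% and 56.4%, with means of 183 TPM and 601 TPM (-1.71), and was not called. Cxcr4, which holds plasma cells in bone marrow, was detected in 17 of 21 and 128 of 236, with means of 115 TPM and 88.3 TPM (0.37). Ccr10, known from IgA-secreting cells, was under the 25% filter: it was detected in 5 of 21 antibody-secreting cells with a highest value of 532 TPM and listed at 0 in every T cell, and it was chosen after its values were seen. The regulatory cytokine Il10 was detected in 1 of 21 antibody-secreting cells, at 214 TPM, and in 69 of 236 T cells (-4.28).

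Genes of interferon response were mixed. Of 10 considered members, 2 were called higher (20%, against 8.12% of all considered genes) and 3 lower (30%, against 12.9%). The median was -1.32. Of the 6 held by both groups 0 were higher and 2 lower, against 2.36% and 6.65% of all such genes. Isg20 was detected in 17 of 21 antibody-secreting cells and 48 of 236 T cells (2.11), whereas Ifi27l2a was detected in 9 of 21 and 186 of 236 (-2.23) and Ifi47, a GTPase, in 3 of 21 and 119 of 236 (-3.99). Of 16 considered survival and adhesion genes, 5 were called higher (31.25%, against 8.12%) and 2 lower (12.5%, against 12.9%). Of the 7 held by both groups 0 were called. Ly6d was detected in 14 of 21 and 1 of 236 cells.

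Some of the antibody-secreting cells carried cell division transcripts. Of 31 division genes, 8 of the 21 cells held 5 or more, and 4 cells held 17 or more, which were S429 with 17, S360 with 22, S372 with 24 and S472 with 26. The median was 4 in the antibody-secreting cells and 22 in the cells annotated as dividing T cells. Of the other T cell classes, 33 of 115 Treg, 21 of 61 T follicular helper and 7 of 25 activated cells held 5 or more, with medians of 4, 3 and 4. Without S372, which also carried T cell transcripts, 3 of 20 antibody-secreting cells held 17 or more, and in each of these 3 all 6 T cell transcripts were below 1 TPM. These 3 cells had 3196 to 3658 genes above 0, more than the median of the class. Mki67, the proliferation antigen, was detected in 6 of 21 antibody-secreting cells (28.6%), 23 of 35 dividing T cells (65.7%) and 3.28% to 5.22% of the other T cell classes. As a list, 13 division genes were considered, of which 0 were called higher and 1, Mcm2, lower (7.69%, against 12.9% of all considered genes).

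The 21 cells varied among themselves along the Igj share. The summed TPM of the ER folding list, computed without Igj in the total, had a Pearson r of -0.67 and a Spearman rho of -0.69 with the Igj share over 21 cells. Leaving out the 2 cells farthest from the median share, S389 and S348, gave r of -0.69 and rho of -0.65, and leaving out S372 gave -0.79 and -0.85. Without Mzb1, the most abundant gene of the list, r was -0.67 over 21 cells. Among the 14 cells of numbers 289 to 384 r was -0.44 with the full list and -0.45 without Mzb1. The number of genes above 0 also ran against the Igj share (r -0.54, rho -0.72), and its part in the relation was not tested. Xbp1 showed r of 0.31 and rho of 0.39, and r of 0.11 without the 2 farthest cells. These correlations are across cells of 1 sample, which share the library preparation, and are a description.

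**Figure D5:**
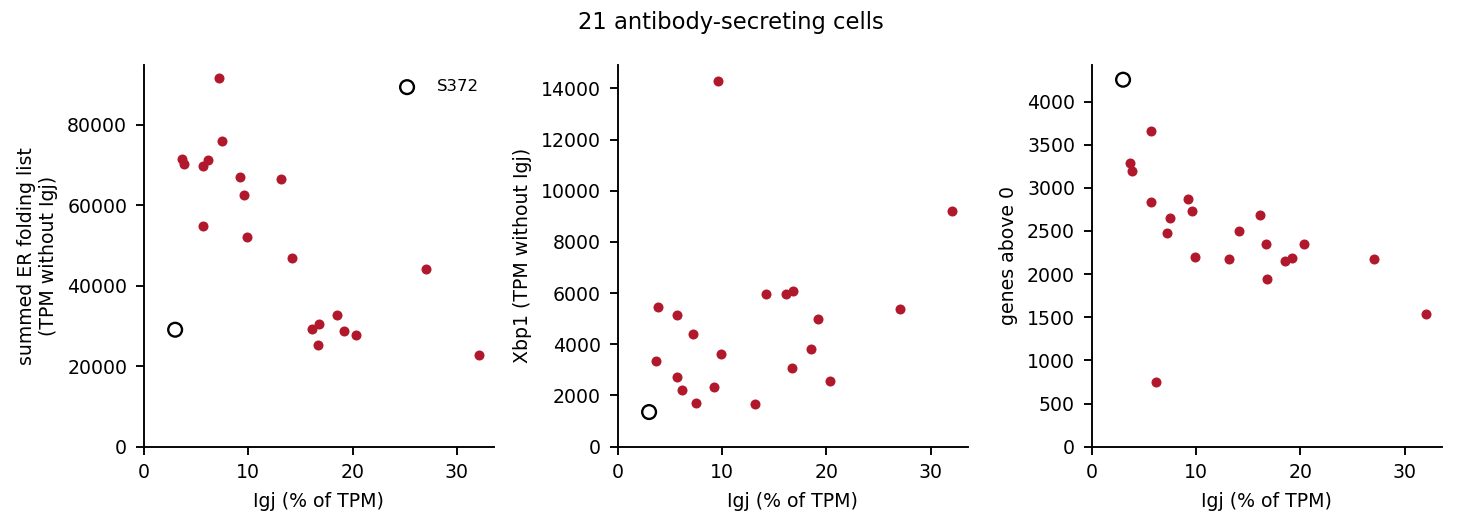
Igj share of TPM (horizontal axis) in each of the 21 antibody-secreting cells against the summed ER folding list, Xbp1 (both as TPM of a total without Igj) and the number of genes above 0. The ER folding sum runs against the Igj share (r -0.67), Xbp1 shows little relation, and the open circle is S372, the cell with T cell transcripts.

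Markers of other islet cell types were sparse in the antibody-secreting cells. Beta cell transcripts (Ins1, Ins2 and Iapp) and acinar transcripts (Clps, Cpa1, Prss2 and Cela1) were at 0 in all 21 antibody-secreting cells, and were found in 37 and 18 of 236 T cells. The exact interval of 0 of 21 cells reaches 16.1%. A wider list of 6 beta and endocrine genes had a median summed level of 0 in both groups. Its highest summed level was 1689 TPM in antibody-secreting cells and 7161 TPM in T cells. The endothelial genes Pecam1 and Cdh5 were found in 3 of 21 antibody-secreting cells, with a summed level of at most 157 TPM, and in 20 of 236 T cells, with at most 1132 TPM.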

How the data were processed

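Single cells from mouse islets were sorted by tetramer and read with SMART-Seq2, per the labels' protocols. The submitters' processing notes list TopHat, Bowtie, RSEM 1.2.8 and the build mm10, without the role of each. The deposited table holds natural log values for 13561 genes in 441 cells. After the exponential minus 1 they sum to 100000 per cell, so they were read as ln(TPM/10 + 1) and turned back into TPM, which sums to 1000000. The deposited classes matched the labels in 441 of 441 cells.

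Each gene's ratio was (mean TPM + 1) in antibody-secreting cells over that in T cells, with the filters stated beside the counts. No test was run, because each group is 1 sample, and no paired analysis was possible. The code for the ratio was run on simulated cells with set changes. These lay in genes common in T cells, and ratios were centred first, unlike the calls here. That run was a check of the code and does not bear on the calls. Members, gene lists and markers were chosen with earlier results of these data known. Named genes were the 15 largest called ratios in each direction among genes detected in 50% of the higher group, the 4 largest of each list and a fixed set of markers, without unnamed gene models and ribosomal or pseudogenes. Genes outside this rule are marked in the text, or are the members of another listed group, the islet and T cell markers, the 8 promoter matches and the called exceptions, which were named after their values were seen. Pax5 was not analysed here, and 2 genes that the rule names are not reported here. Alternatives covered Igj removal, detection filters, the pseudocount, means of logs, medians, dividing cells, cells that went against their class and runs of cell numbers. Removing 2 T-annotated cells with B cell markers was added after seeing the data. Promoters were RefSeq windows of GRCm38.p6, which is mm10, matched by symbol for 55 of the 67 called ER genes. Python 3.11.15, NumPy 2.4.6, pandas 2.3.3, SciPy 1.17.1 and matplotlib 3.10.9 were used.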

Additional observations from a re-analysis of the deposited data

Results flagged for a closer look

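Igj was looked for in the HIP sort, whose 184 cells enter no comparison above and include 0 cells annotated as B cells. It was detected in 11 of 184 HIP cells, 5.98% (exact 95% interval 3.02% to 10.4%), a signal in cells outside the comparison, and in 7 of 236 T cells of the Ins sort, 2.97% (exact upper bound 6.02%). The levels were low, with a highest value of 199 TPM and a next highest of 4.11 TPM in HIP cells, against at least 30145 TPM in the antibody-secreting cells. Sdc1 and Tnfrsf17 were detected in 0 of 184 HIP cells.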

How the results depend on the processing

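The counts of 327 higher and 521 lower genes moved by over 1.5 times under several settings. They were 749 and 2789 with no detection filter, 182 and 177 with detection in 50% of either group, 699 and 258 as a difference of mean log2(TPM + 1), 794 and 195 on median TPM, and 758 and 1553 among cells 97 to 192, which hold 2 antibody-secreting cells. The lower count was 332 with a pseudocount of 10 TPM and 1095 against dividing T cells alone. The number of genes considered also changed, so these counts are not parts of 1 total. It was 4028 in the main setting, 13561 with no detection filter and 1678 with detection in 50% of either group. Among cells 97 to 192 it was 5120, and against dividing T cells alone 5700. The cause was not tested. Without S372 the counts were 359 and 561, without the cell with the fewest genes 364 and 525, and without S111 and S124 329 and 519. The sizes of the log2 ratios also depended on the measure. The median over all considered genes was -0.38 in the main setting, 0.51 as a difference of mean log2(TPM + 1) and 0 on median TPM. Signs of called genes reversed in a few cases. Some list medians also changed sign, but over other members, because the genes considered differ between settings. With no detection filter the list medians were -0.20 for mature B cell, -0.094 for germinal centre B cell and -0.025 for myeloid genes. These cover 26, 10 and 9 genes, against 10, 1 and 2 in the main setting. The cytokine list had 1 considered gene in the main setting, Il10. Among cells 97 to 192 the cytokine list had a median of 0.90, and log2 ratios were -2.14 for Tnfrsf13c, -5.64 for Yif1a and -0.16 for Slc7a5. Of 19 named genes that were not called, 3 had the other sign there, Cdc20 at -5.99, Mki67 at -3.39 and Rpl34 at -5.54, and Rpl34 was -0.80 without the cell with the fewest genes. Against dividing T cells alone Mki67 was -1.22 and Cdc20 -0.98. Among cells 385 to 480 the mature B cell median was -3.48, the cytokine median 5.73 and Tmem176a -2.01. No paired analysis was possible because no test was run and the labels give cells no pairing. The 21 cells, the lack of named animals and the unknown read depth limit every value, and genes seen in 0 of 21 cells may be detected in up to 16.1% of such cells.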
